A study of Homo sapiens with 14 samples.

Results

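Chromatin accessibility was described at 10 genes that encode plasma cell identity transcription factors, or their close partners, in 2 human multiple myeloma (MM) cell lines. The genes were IRF4, PRDM1, XBP1, POU2AF1, POU2F1, POU2F2, ZBTB20, MEF2A, MEF2C and MEF2D. They were chosen by name from 20007 protein-coding genes and not by a value measured here, though earlier results of these data were known. For each gene, every reference peak was taken that touched the gene body or the 100 kb on either side of it. This gave 218 of the 72802 peaks of the MM.1S list and 225 of the 79969 peaks of the RPMI8226 list. Omni-ATAC, in which a transposase cuts open chromatin and leaves sequencing adapters there, was run on 14 libraries. MM.1S had 3 libraries of cells grown alone (MONO), 3 of cells from the upper transwell above HS5 bone marrow stromal cells (TSW) and 3 of cells that touched HS5 in the lower chamber (CO). RPMI8226 had 1 MONO, 2 TSW and 2 CO libraries. Both are established lines grown from a patient's myeloma, and the labels name no transgene or drug. By the study's methods, the cells were sorted before the assay as CD90- CD38+, which keeps plasma cells by CD38 and leaves out stromal cells by CD90.

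The deposited list of a line holds the regions called as peaks in at least 3 of its libraries, with the number of those libraries, here called support. Support therefore ran from 3 to 9 in MM.1S and from 3 to 5 in RPMI8226. The lists hold no reads and no value for a single library, so depth is unknown from them, no condition could be compared with another, and no test between samples was possible. Peaks that had 1 bp or more in common with any peak of the other line were counted as shared and the rest as line-only. A line-only peak says that fewer than 3 libraries of the other line had a peak there, not that the chromatin was closed. Both lists had promoter peaks for all 6 plasma cell marker genes checked (SDC1, TNFRSF17, CD38, SLAMF7, JCHAIN and MZB1). Of 10 stromal marker genes, MM.1S had promoter peaks for 8 and RPMI8226 for 5. The share over all protein-coding genes was 76.8% in MM.1S and 71.9% in RPMI8226, and purity cannot be read from such small counts. COL3A1 and THY1, the gene of CD90, had none in either list. Stromal cells left after the sort could add signal to the CO libraries, the only ones from the chamber with HS5. These were 3 in MM.1S and 2 in RPMI8226, while a listed peak needed at least 3 libraries. The part of stromal cells in the results was not tested.

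Plasma cells are the antibody-secreting end stage of the B lineage, and MM is a cancer of these cells. IRF4 and PRDM1 (Blimp-1) together switch on the plasma cell programme and shut down that of the B cell, and MM cells depend on IRF4. XBP1 is translated into an active factor after the stress sensor ERN1 has spliced its mRNA, and it expands the secretory apparatus. POU2AF1 is a coactivator brought to DNA by POU2F1 and POU2F2, which bind the octamer found in immunoglobulin promoters. ZBTB20 is a zinc finger repressor needed for the long life of plasma cells. MEF2A, MEF2C and MEF2D are MADS-box factors that bind an A/T-rich element, and MEF2C also acts in earlier B cells.

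All 10 genes had a peak at a promoter of their own in both lists, and in each case at least 1 such peak was called in every library of the line. A promoter was taken as the sequence within 2500 bp of any annotated start site. Over all protein-coding genes, 76.8% had a peak of any support at their own promoter in MM.1S and 71.9% in RPMI8226. The share of genes with such a peak in every library was not computed. The core promoters of the genes, from 250 bases before to 50 bases after a RefSeq start site (GRCh38.p14), are shown for the starts the results turn on. RefSeq entries were matched for 9 of the 10 genes, with 28 start sites in all, and POU2AF1 had none. Of these 28, 14 touched a peak in both lists, 2 in MM.1S alone, 2 in RPMI8226 alone and 10 in neither. Capitals mark matches to the motifs searched.

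The first set shows the main starts of the 3 factors at the centre of the programme, all 5′ to 3′ on the strand of the gene. The IRF4 promoter (chr6:391502-391801, plus strand) is 74% G and C with 32 CG pairs, and all 300 bases lay in a peak of both lists.
IRF4: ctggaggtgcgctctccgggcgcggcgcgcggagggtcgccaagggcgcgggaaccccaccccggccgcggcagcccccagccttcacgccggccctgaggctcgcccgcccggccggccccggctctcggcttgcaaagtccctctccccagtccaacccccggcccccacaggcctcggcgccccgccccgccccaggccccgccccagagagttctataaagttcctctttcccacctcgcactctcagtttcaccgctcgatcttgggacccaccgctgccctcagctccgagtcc
The PRDM1 promoter (chr6:106086086-106086385, plus strand) is 54.3% G and C with 14 CG pairs, and all 300 bases lay in a peak of both lists.
PRDM1: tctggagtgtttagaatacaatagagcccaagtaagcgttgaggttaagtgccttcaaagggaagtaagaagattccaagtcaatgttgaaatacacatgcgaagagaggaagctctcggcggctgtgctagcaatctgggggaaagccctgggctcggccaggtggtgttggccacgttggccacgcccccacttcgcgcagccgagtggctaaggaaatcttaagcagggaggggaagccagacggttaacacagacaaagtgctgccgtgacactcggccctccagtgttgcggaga
The XBP1 promoter (chr22:28800520-28800819, minus strand) is 68.7% G and C with 40 CG pairs. All 300 bases lay in a peak of MM.1S and 263 in a peak of RPMI8226.
XBP1: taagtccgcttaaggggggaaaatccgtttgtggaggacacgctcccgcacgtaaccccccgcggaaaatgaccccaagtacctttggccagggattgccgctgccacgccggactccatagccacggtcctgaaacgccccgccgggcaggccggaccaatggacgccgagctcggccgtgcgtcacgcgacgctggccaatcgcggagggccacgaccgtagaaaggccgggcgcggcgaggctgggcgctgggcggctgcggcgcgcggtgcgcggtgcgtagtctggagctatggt

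The second set shows inner starts of PRDM1 and POU2F1, at which the lists differed, both with fuller support in MM.1S. It also shows the main start of MEF2A, which holds the motif of its own factor. Starts that touched a peak in RPMI8226 alone are not printed. They lay at ZBTB20 (chr3:114900576-114900875, 300 bases in a peak) and MEF2C (chr5:88785462-88785761, 171 bases), each with support 5. The inner PRDM1 start (chr6:106098691-106098990, plus strand) lay whole in a peak called in 9 of 9 MM.1S libraries and in no RPMI8226 peak. It holds an AP-1 match and an ETS-IRF match.
PRDM1 inner: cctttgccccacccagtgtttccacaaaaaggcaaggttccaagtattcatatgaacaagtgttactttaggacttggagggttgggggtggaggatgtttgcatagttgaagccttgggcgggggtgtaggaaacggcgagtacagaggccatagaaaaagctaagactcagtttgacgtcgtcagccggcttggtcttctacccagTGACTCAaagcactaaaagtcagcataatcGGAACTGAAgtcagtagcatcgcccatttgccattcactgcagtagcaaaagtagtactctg
The inner POU2F1 start (chr1:167328820-167329119, plus strand) holds the octamer that POU2F1 itself binds. It lay whole in a peak with support 9 of 9 in MM.1S, while 193 of its bases lay in an RPMI8226 peak with support 3 of 5.
POU2F1 inner: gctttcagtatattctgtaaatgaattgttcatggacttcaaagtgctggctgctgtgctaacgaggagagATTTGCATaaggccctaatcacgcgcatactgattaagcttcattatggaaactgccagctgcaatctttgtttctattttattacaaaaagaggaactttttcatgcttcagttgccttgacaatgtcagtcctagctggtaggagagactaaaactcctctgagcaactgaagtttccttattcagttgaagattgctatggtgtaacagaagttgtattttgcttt
The MEF2A promoter (chr15:99565734-99566033, plus strand) holds a MEF2 match and an ETS-IRF match and lay whole in a peak of both lists.
MEF2A: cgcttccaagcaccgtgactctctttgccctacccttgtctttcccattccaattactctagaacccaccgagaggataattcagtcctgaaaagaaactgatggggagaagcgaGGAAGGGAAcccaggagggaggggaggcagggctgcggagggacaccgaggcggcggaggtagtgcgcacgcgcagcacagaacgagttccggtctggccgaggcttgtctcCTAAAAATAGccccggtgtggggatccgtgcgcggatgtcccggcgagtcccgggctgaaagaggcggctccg

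At the canonical start sites, most peaks were wider than the median peak of their list and called in every library. The MEF2A start-site peak was the widest, at 2596 bp in MM.1S and 1698 bp in RPMI8226, and 99.9% and 99.8% of the peaks of the respective list were narrower. The ZBTB20 start-site peak measured 1580 bp in MM.1S and 1107 bp in RPMI8226. The IRF4 start-site peak measured 1387 and 901 bp, that of MEF2C 1383 and 740 bp, that of POU2F1 1373 and 1029 bp, and that of POU2AF1 1124 and 1114 bp. The MEF2D start-site peak measured 940 and 878 bp and the XBP1 start-site peak 833 and 650 bp. The median width was 536 bp over all MM.1S peaks and 362 bp over all RPMI8226 peaks. Of those, 44290 of 72802 and 51152 of 79969 were distal. Widths at the start sites of other genes were not computed, so the widths are not shown to be particular to these genes. PRDM1 had the narrowest peak over its start, at 620 bp in MM.1S and 391 bp in RPMI8226, each close to the middle of its list. Each of these 9 start-site peaks was called in all libraries of the line and covered the start site. POU2F2 was the exception, since its canonical start (chr19:42132446) lay in no peak of either list. Its nearest peaks had midpoints at −0.92 and 2.57 kb in MM.1S, both with support 9, and at −0.95 and 2.77 kb in RPMI8226, with support 4 and 5. Distances are from the canonical start site to the midpoint of the peak, negative upstream.

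Several of the genes have start sites far apart, and not all of these had a peak. Start sites of protein-coding transcripts were joined where they lay within 1000 bp of each other. PRDM1 had 5 such groups. The farthest upstream, at −92.9 kb, had 2 peaks in each list, called in all libraries, the one at −37.8 kb had none, and the inner group at 12.4 kb had a peak over the start in MM.1S only. POU2AF1 had 2 groups, and the upstream one at −70.7 kb had no peak in either list. POU2F1 had no peak at 151 kb in either list. POU2F2 had 6 groups, of which the inner ones at 15.0 and 36.9 kb had no peak, while that at −44.9 kb had 901 bp of peak with support 9 in MM.1S and 586 bp with support 5 in RPMI8226. ZBTB20, the longest gene at 833 kb, had 5 groups, and those at 75.9 and 388 kb had no peak in either list.

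MEF2C had 9 groups of start sites and differed most between the lists in which of them had peaks. The upstream group at −21.0 kb had no peak in either list, and the group at 56.0 kb had peaks with full support in both. The group at 97.7 kb had 3 peaks in RPMI8226, with support up to 5 of 5, and none in MM.1S. The groups at 5.20 and 59.1 kb had peaks in MM.1S only, with support of at most 4 and 5 of 9. MEF2D, in contrast, had peaks in both lists at its main start and at 10.2 kb, and at 17.3 kb in MM.1S only, where support reached 9 of 9.

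**Figure D1:**
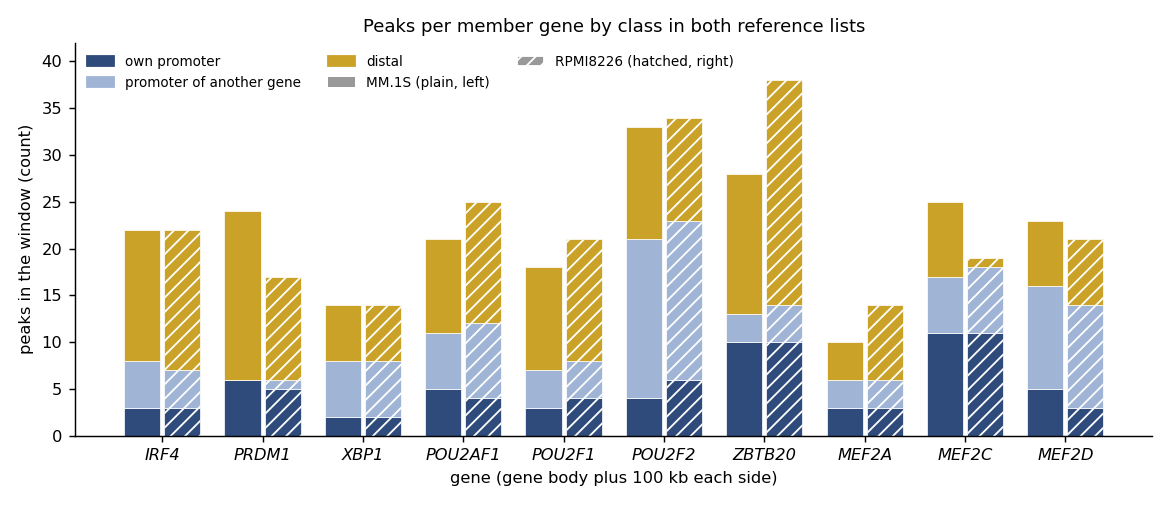
Number of reference peaks in the window of each gene (gene body plus 100 kb each side), stacked by class, for MM.1S (plain bar, left) and RPMI8226 (hatched bar, right). Both lists have 22 peaks at IRF4 and 14 at XBP1, RPMI8226 has more at ZBTB20 (38 against 28), and MM.1S has more at PRDM1 (24 against 17) and MEF2C (25 against 19).

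Of the 218 MM.1S peaks, 52 lay at a promoter of the member itself, 61 at a promoter of another gene and 105 were distal. Of the 225 RPMI8226 peaks, 51 were own promoter peaks, 65 lay at another gene's promoter and 109 were distal. Promoter peaks made up 51.8% (95% Wilson interval 45.2 to 58.4) in MM.1S and 51.6% (45.1 to 58.0) in RPMI8226, against 39.2% and 36% of the whole lists. The windows are drawn around genes, which fixes part of that difference. The count per window ranged from 10 at MEF2A to 33 at POU2F2 in MM.1S, and from 14 at XBP1 and MEF2A to 38 at ZBTB20 in RPMI8226. All intervals given here cover counting error only.

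Set against the length of the window, 8 of the 10 genes had more peaks per 100 kb than the median protein-coding gene in each list, a count that reads against 50% in MM.1S and 50% in RPMI8226 by construction. POU2F2 had the most, with 10.6 peaks per 100 kb in MM.1S and 10.95 in RPMI8226, followed by IRF4 with 10.0 in both. IRF4 thereby stood above 93.7% of the protein-coding genes in MM.1S and 93.3% in RPMI8226, and MEF2D above 92.4% and 88.3%. PRDM1 stood above 81.9% of the genes in MM.1S and 61.2% in RPMI8226. POU2AF1 had the opposite order, at 77.4% and 84.9%. ZBTB20 (2.71 and 3.68 peaks per 100 kb) and MEF2A (2.85 and 3.99) were the 2 genes below the median of 4.06 in MM.1S and 4.37 in RPMI8226. The median over the 10 genes was 6.86 in MM.1S and 6.08 in RPMI8226.

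**Figure D2:**
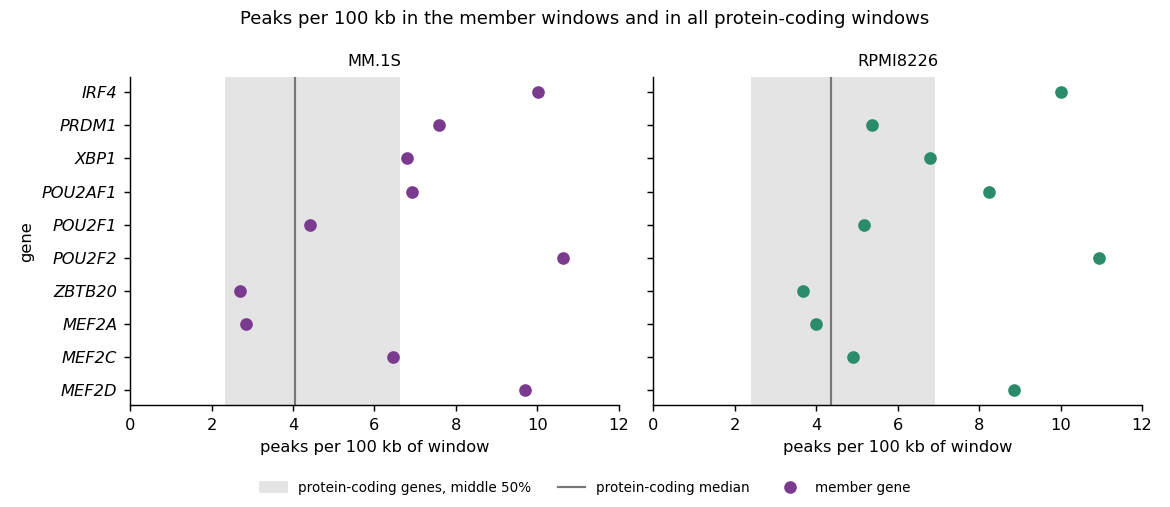
Peaks per 100 kb of window (horizontal axis) for each of the 10 genes (points) in MM.1S (left) and RPMI8226 (right). The line is the median and the grey band the middle 50% of 20007 protein-coding genes, and 8 of the 10 points lie to the right of the line in each panel.

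Most peaks at these genes were found in both lines. In MM.1S 153 of 218 peaks were shared, 70.2% (63.8 to 75.9), and in RPMI8226 163 of 225, 72.4% (66.3 to 77.9). Over the whole lists, 64.6% of MM.1S peaks and 62% of RPMI8226 peaks were shared. A window around a gene is the closer comparison, and the median protein-coding window had 71.4% of its MM.1S peaks and 73.3% of its RPMI8226 peaks shared, so the 10 genes stood near the middle on this measure. Distal peaks were shared in 70 of 105 cases in MM.1S, 66.7% (57.2 to 74.95), against 60% of all distal peaks. In RPMI8226 they were shared in 74 of 109 cases, 67.9% (58.6 to 75.9), against 53.7%. The closer comparison, with distal peaks of the median protein-coding window, was not computed. Promoter peaks in the windows were shared in 83 of 113 cases in MM.1S (73.5%, list 71.8%) and in 89 of 116 in RPMI8226 (76.7%, list 76.6%).

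The genes differed among themselves in how much the lines had in common. XBP1, POU2AF1, POU2F1 and POU2F2 had over 70% of their peaks shared in both lists, with POU2F2 at 27 of 33 and 29 of 34. IRF4 had a lower share in both, at 13 of 22 and 14 of 22. PRDM1, MEF2C and ZBTB20 were lopsided. At PRDM1 13 of 24 MM.1S peaks were shared (54.2%, 35.1 to 72.1) and 14 of 17 RPMI8226 peaks (82.4%, 59.0 to 93.8). At MEF2C 11 of 25 MM.1S peaks were shared (44%, 26.7 to 62.9) and 13 of 19 RPMI8226 peaks (68.4%, 46.0 to 84.6). ZBTB20 had the reverse, with 24 of 28 MM.1S peaks shared (85.7%, 68.5 to 94.3) and 24 of 38 RPMI8226 peaks (63.2%, 47.3 to 76.6). Within each of these genes the intervals of the lists overlapped.

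**Figure D3:**
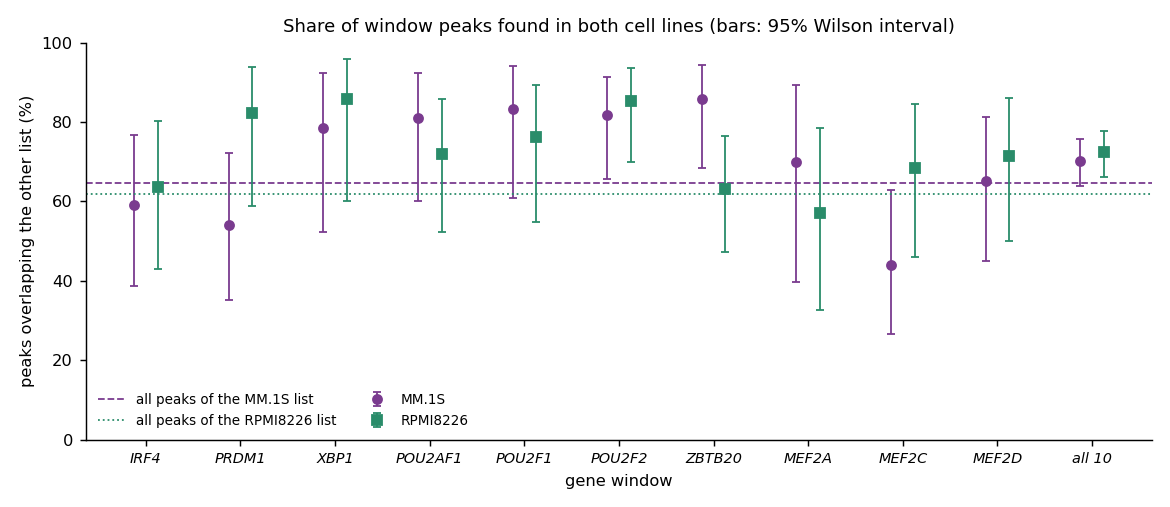
Share of the peaks of each window that overlap a peak of the other line (vertical axis, percent), for MM.1S (circles) and RPMI8226 (squares), with 95% Wilson intervals as bars. Horizontal lines give the share over all peaks of each list (64.6% and 62%). The gap between the lines is wide at PRDM1, ZBTB20 and MEF2C.

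Support at these genes was near that of a typical gene window. In MM.1S 135 of 218 peaks were called in every library, 61.9% (55.3 to 68.1), against 52% of the list, and in RPMI8226 155 of 225, 68.9% (62.6 to 74.6), against 64.1%. The median protein-coding window had 58.3% and 69.2%, each inside the interval of the 10 genes. Sharing was most frequent among peaks called in every library. Of the MM.1S peaks with support 9, 115 of 135 were shared (85.2%), against 4 of 12 with support 3 (33.3%). Of the RPMI8226 peaks with support 5, 131 of 155 were shared (84.5%), against 10 of 27 with support 3 (37.0%). In the whole lists the corresponding shares were 81.3% and 32.7% in MM.1S and 74.1% and 36.6% in RPMI8226. Between these ends the MM.1S shares at the 10 genes had no steady order, with 1 of 10 shared at support 4.

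Support also limits what the culture conditions could have added. With 3 libraries per condition, no MM.1S peak with support above 6 can have been missing from a whole condition, and 172 of the 218 peaks were of this kind. Only 12 of the 218 had support 3 and could have come from 1 condition alone. They were 4 at IRF4, 3 at ZBTB20 and 1 each at XBP1, POU2F1, POU2F2, MEF2C and MEF2D. In RPMI8226 the single MONO library must have had 155 of the 225 peaks, those called in all 5 libraries. The other 70 may have been absent from MONO, and the lists do not say which library lacked a peak.

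Where 1 peak of each list met, the MM.1S peak was the wider one in 119 of 143 pairs, 83.2% (76.2 to 88.5), against 81.6% of 44631 such pairs in the whole lists. The median width in these pairs was 625 bp in MM.1S and 435 bp in RPMI8226. Widths of the lists are therefore given side by side as values only, and no difference between the lines is read from them. A width was ranked only within its own list. The midpoints of a pair lay a median of 51.5 bp apart.

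**Figure D4:**
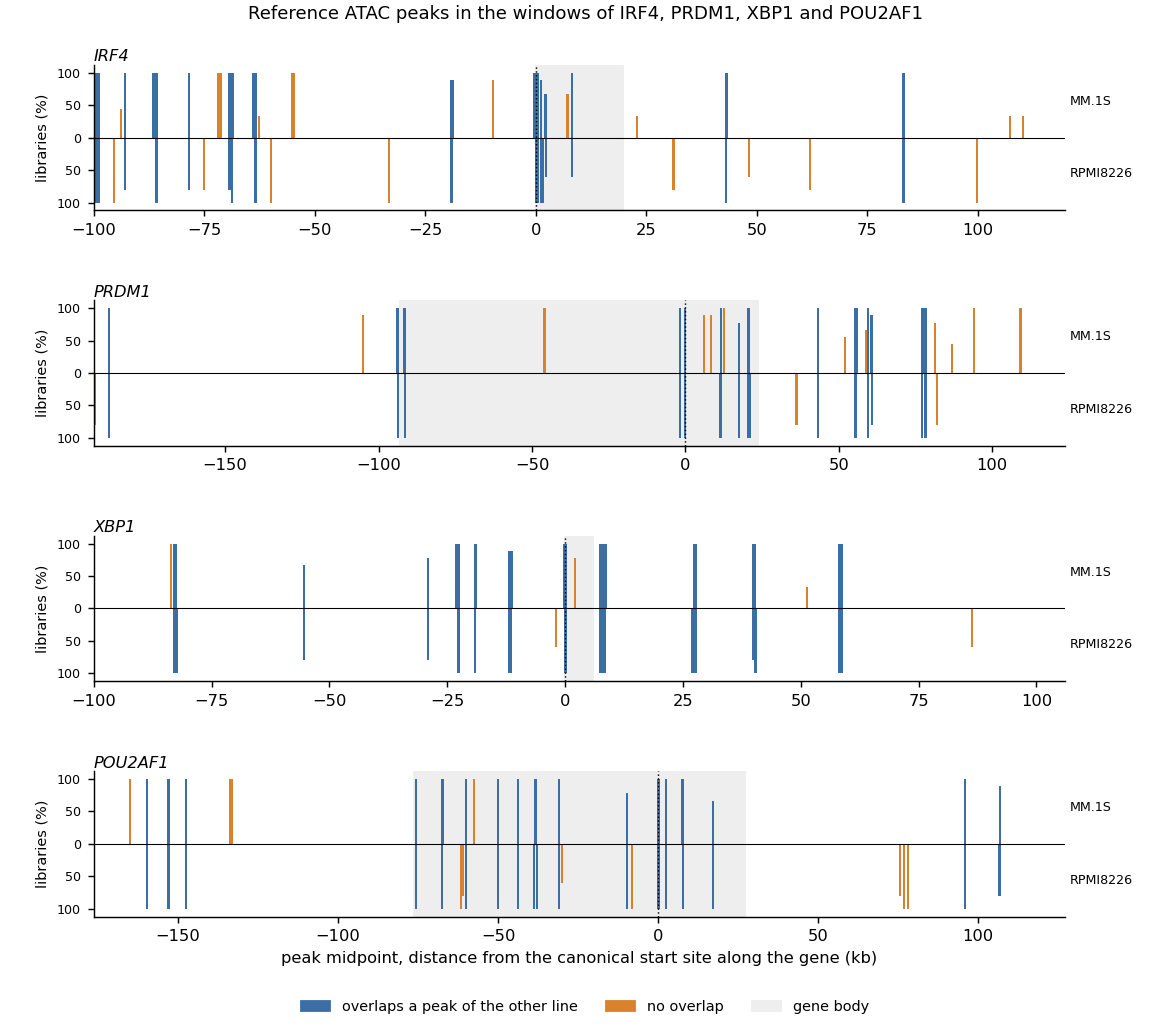
Reference peaks in the windows of IRF4, PRDM1, XBP1 and POU2AF1 by distance from the canonical start site along the gene (horizontal axis, kb, negative upstream). Bars up are MM.1S and bars down RPMI8226, and bar height is the percent of the libraries of the line in which the peak was called. Blue peaks overlap a peak of the other line and orange peaks do not, the gene body is grey, and narrow peaks are drawn wider than scale so that they can be seen. At PRDM1 the MM.1S peaks beyond 80 kb downstream are all orange.

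IRF4 lies on chromosome 6 (chr6:391739-411443, plus strand) with DUSP22, a phosphatase gene, upstream and EXOC2 downstream. Its window had 22 peaks in each list, with 3 own promoter peaks in each, all shared. The widest distal MM.1S peak lay in a DUSP22 intron at −86.1 kb (1160 bp) and met an RPMI8226 peak of 676 bp, both with full support. An intergenic distal peak at −19.0 kb in MM.1S (859 bp, support 8 of 9) met one at −19.1 kb in RPMI8226 (702 bp, support 5 of 5), and it was the widest distal RPMI8226 peak at IRF4. An intronic peak at 8.24 kb was called in 9 of 9 MM.1S libraries but in 3 of 5 RPMI8226 libraries. Farther downstream, peaks at 43.2 and 83.2 kb had full support in both lists. Line-only peaks numbered 9 in MM.1S and 8 in RPMI8226 and lay on both sides of the gene. MM.1S had line-only peaks of 1098 and 882 bp at −71.4 and −54.8 kb in DUSP22, both with support 9. RPMI8226 had line-only peaks with support 5 at −95.4, −59.9, −33.1 and 99.8 kb, of which that at −33.1 kb was the widest (391 bp). Another line-only MM.1S peak, at −9.69 kb, was called in 8 of 9 libraries.

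PRDM1 spans chr6:105993463-106109939 on the plus strand, and the annotation runs ATG5, an autophagy gene, across its 3′ part and the whole downstream flank. MM.1S had 18 distal peaks and RPMI8226 had 11. A distal peak near the 3′ end of the gene was wide in both lists, at 20.5 kb in MM.1S (1098 bp, support 9) and 20.6 kb in RPMI8226 (1240 bp, support 5). Downstream of the gene, peaks at 43.1, 55.6 and 59.6 kb in MM.1S were called in 9 of 9 libraries, and each met an RPMI8226 peak called in 5 of 5. The widest distal MM.1S peak of any of the 10 genes lay at 77.7 kb (chr6:106163103-106164945, 1843 bp, support 9), where 99.0% of the list was narrower. RPMI8226 had 2 peaks there, at 77.1 kb (682 bp) and 78.2 kb (866 bp), both with support 5. Beyond it the lists parted, and the last 4 MM.1S peaks, from 81.2 to 109 kb, were all line-only. The peaks at 93.9 kb (682 bp) and 109 kb (1060 bp) among them were called in 9 of 9 libraries. A further MM.1S-only peak with support 9 lay upstream in the gene at −45.9 kb (462 bp). No distal line-only RPMI8226 peak at PRDM1 was called in every library.

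XBP1 is a short gene of 6.04 kb on chromosome 22 (chr22:28794555-28800597, minus strand), and nearly all of its distal peaks were found in both lines. All 6 distal RPMI8226 peaks and 5 of 6 distal MM.1S peaks were shared. The widest was an intergenic peak just past the end of the gene, at 8.05 kb in MM.1S (chr22:28791699-28793345, 1647 bp, support 9) and 7.90 kb in RPMI8226 (1424 bp, support 5), wider than 98.0% and 99.2% of the lists and wider than the peak at the XBP1 start. A distal peak at −22.8 kb in MM.1S (1069 bp) met one at −22.6 kb in RPMI8226 (588 bp), both with full support. The window also holds the start-site peaks of CHEK2 and HSCB at 58.4 kb, shared in all libraries of both lines. Line-only peaks numbered 3 in MM.1S and 2 in RPMI8226. The one called in every library was an MM.1S peak of 511 bp at a promoter of ZNRF3, at −83.6 kb.

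POU2AF1 lies on chromosome 11 (chr11:111352255-111455630, minus strand). In its gene body all 6 distal MM.1S peaks were shared, while RPMI8226 had 10, of which 6 were shared. Peaks at 7.57, −30.9, −43.8, −50.04 and −60.1 kb had support 9 in MM.1S and met RPMI8226 peaks with support 5. At −9.77 kb the MM.1S peak had support 7 of 9 and the RPMI8226 peak 5 of 5. RPMI8226 alone had peaks in all 5 libraries at −8.27 and −61.6 kb, and MM.1S alone had one in all 9 at −57.5 kb (410 bp), which counted as an own promoter peak. The neighbours of the gene set the lists apart. The promoter region shared by COLCA1 and POU2AF3, the latter a relative of POU2AF1, had 3 peaks from 75.6 to 78.0 kb in RPMI8226, with support 4 and 5, and none in MM.1S. A peak of 1211 bp at −133 kb, at the promoters of BTG4, HOATZ and the microRNA genes MIR34B and MIR34C, was called in 9 of 9 MM.1S libraries and had no RPMI8226 partner. One at a LAYN promoter at −165 kb (564 bp, support 9) was likewise in MM.1S only.

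**Figure D5:**
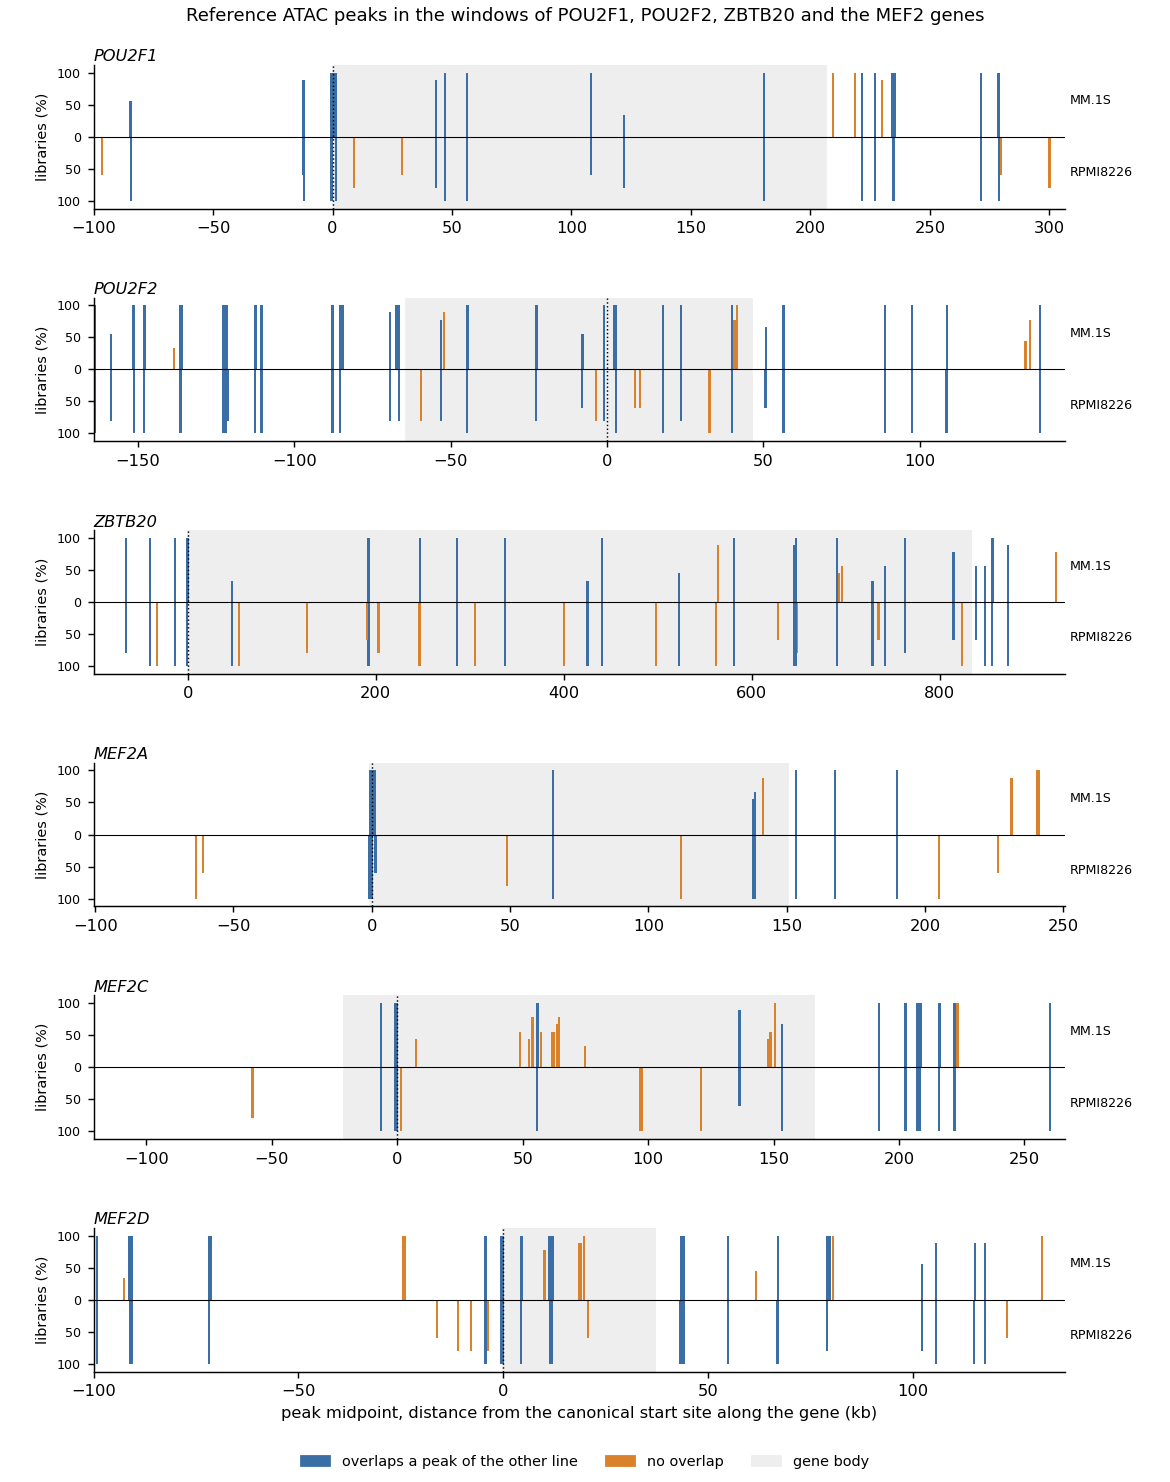
Reference peaks in the windows of POU2F1, POU2F2, ZBTB20, MEF2A, MEF2C and MEF2D, drawn as for the first 4 genes, with MM.1S up, RPMI8226 down, height as percent of libraries and distance from the canonical start site in kb. The group of short orange MM.1S bars near 60 kb at MEF2C has no RPMI8226 counterpart, and the orange RPMI8226 bars at ZBTB20 are spread along the gene body.

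POU2F1, the widely expressed octamer factor, had a largely common set. In its gene body all 5 distal MM.1S peaks and 5 of 6 distal RPMI8226 peaks were shared. The inner start at 108 kb, which holds the octamer, had 789 bp of peak in MM.1S with support 9 and 193 bp in RPMI8226 with support 3. Downstream lies CD247, which encodes the zeta chain of the T cell receptor complex. Peaks at 271 and 279 kb in CD247 introns had full support in both lists, and a CD247 promoter peak at 235 kb measured 1801 bp in MM.1S and 1373 bp in RPMI8226. MM.1S alone had peaks at 209 kb (998 bp, support 9), 219 kb (663 bp, support 9) and 230 kb (285 bp, support 8). POU2F2, the octamer factor of B lineage cells, sits among many genes, so that 17 of its peaks in each list were at the promoter of another gene, among them CIC, ERF and GSK3A. Inside POU2F2, peaks at 18.0 kb (716 bp) and 39.9 kb (562 bp) had support 9 in MM.1S and met RPMI8226 peaks with support 5. A peak at 41.6 kb (418 bp, support 9) was in MM.1S only, and one at 32.8 kb (363 bp, support 5) in RPMI8226 only.

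ZBTB20 had more distal peaks in RPMI8226 (24) than in MM.1S (15), and the difference lay in its gene body, with 19 against 10. Of the 19, 9 were shared and 10 were RPMI8226-only. Of the 11 RPMI8226-only distal peaks in the window, 7 were called in all 5 libraries, whereas none of the 2 MM.1S-only distal peaks was called in all 9. The widest RPMI8226-only peak lay upstream, at −32.2 kb (chr3:115178926-115180005, 1080 bp, support 5). Shared intronic peaks with full support in both lists lay at 192, 337, 440 and 581 kb. An inner start at 523 kb had a peak with support 4 of 9 in MM.1S and 5 of 5 in RPMI8226. The downstream flank holds TIGIT, an inhibitory receptor of T and NK cells, with a promoter peak at 856 kb of 1147 bp in MM.1S and 812 bp in RPMI8226, both with full support.

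The MEF2 genes had unlike surroundings. MEF2A had 4 distal peaks in MM.1S and 8 in RPMI8226, of which 3 in each list were shared. Those 3 lay at 65.4, 138 and 190 kb. RPMI8226 alone had peaks with support 5 at −63.6, 111.9 and 205 kb. MEF2C had 8 distal peaks in MM.1S and 1 in RPMI8226. The single shared one lay at 260 kb in an intron of LINC00461 and had full support in both lists. The other 7 lay in the MEF2C gene body, and none of them was called in every library. A run of 6 successive MM.1S peaks from 57.4 to 74.8 kb was line-only, with support from 3 to 7 and widths from 221 to 567 bp. RPMI8226 in turn had a run of 4 line-only peaks from 96.8 to 121 kb, of which 3 were called in all 5 libraries, and all 4 counted as own promoter peaks. MEF2D had 7 distal peaks in each list, of which 5 were shared. Its widest MM.1S-only peak lay at −24.2 kb (chr1:156524483-156525501, 1019 bp, support 9).

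The windows of MEF2C and MEF2D each hold a gene for the microRNA MIR9. At MIR9-2, in the MEF2C window at 216 kb, the peak was 1073 bp in MM.1S and 691 bp in RPMI8226, with full support in both. At MIR9-1, in the MEF2D window at 79.3 kb, the MM.1S peak was 1237 bp with support 9, and the RPMI8226 peak at 79.0 kb was 313 bp with support 4.

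Motifs of the members and of their known partners were sought on both strands in the central 200 bp of each peak. The motifs were the octamer ATGCAAAT, the IRF repeat GAAANNGAA, the ETS-IRF composite GGAANNGAA, AP-1 as TGANTCA, the unfolded protein response element core TGACGTGG, the CRE core TGACGTCA and the MEF2 consensus. Matches of the IRF repeat and the ETS-IRF composite can overlap. In the RefSeq core promoters of all genes (35116 entries), 1.77% held an octamer, 8.11% an IRF repeat, 7.79% an ETS-IRF match, 7.71% an AP-1 match, 0.729% the response element core, 1.85% the CRE core and 0.572% a MEF2 match. A match is a description of the letters and not a sign that a factor was bound.

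The motif shares of the members' peaks were mostly those of the lists. Of 28 combinations of motif, list and class, the share over the whole list lay inside the 95% interval of the members' share in 26. The exceptions were octamers at RPMI8226 promoter peaks, with 5 of 116 (4.31%, 1.85 to 9.69, list 1.39%), and MEF2 matches at RPMI8226 distal peaks, with 3 of 109 (2.75%, 0.94 to 7.78, list 0.901%). Both rest on few peaks. Octamers in distal peaks numbered 5 of 105 in MM.1S (4.76%, list 2.27%) and 2 of 109 in RPMI8226 (1.83%, list 2.28%), all at PRDM1, POU2AF1 and ZBTB20. AP-1 matches differed between the lists as a whole, at 12.4% of distal MM.1S peaks and 21.1% of distal RPMI8226 peaks. In the members' distal peaks they were at 6.67% (3.27 to 13.1) and 20.2% (13.7 to 28.7).

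Searching the whole length of the distal peaks, 2 octamers, 15 IRF repeats, 16 ETS-IRF composites, 23 AP-1 sites and 5 MEF2 sites lay in a distal peak of both lists. No response element core or CRE core did. Whole-length counts over all distal peaks were not computed, so these counts are not shown to be particular to the 10 genes. Both cores are rare in the lists. In the central 200 bp, 0.294% of all distal MM.1S peaks and 0.309% of RPMI8226 peaks held the response element core. The CRE core was in 0.239% and 0.205%. The stretches below were accessible in both lines at the central genes, with the named match in capitals and other matches in lower case. They are given on the plus strand of hg38, so that a match on the minus strand appears as its reverse complement. They are examples chosen after the matches were seen, and the shared distal peaks of these genes hold further matches, such as IRF repeats at IRF4 (43.2 kb), XBP1 (−22.8 kb) and POU2AF1 (−43.8 and −50.04 kb).
IRF4 at −19.0 kb, 2 ETS-IRF matches (chr6:372629-372823): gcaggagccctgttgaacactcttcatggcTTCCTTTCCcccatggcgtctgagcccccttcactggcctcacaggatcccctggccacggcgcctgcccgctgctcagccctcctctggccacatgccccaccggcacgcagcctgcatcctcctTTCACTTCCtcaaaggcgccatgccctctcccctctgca
PRDM1 at −188 kb, octamer (chr6:105898406-105898473): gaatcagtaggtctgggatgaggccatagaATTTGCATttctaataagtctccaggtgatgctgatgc
PRDM1 at 55.6 kb, 2 MEF2 matches (chr6:106141712-106141811): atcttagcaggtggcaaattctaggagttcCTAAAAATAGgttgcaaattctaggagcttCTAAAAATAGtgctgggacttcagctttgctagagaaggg
PRDM1 at 77.7 kb, 2 IRF repeats (chr6:106164597-106164675): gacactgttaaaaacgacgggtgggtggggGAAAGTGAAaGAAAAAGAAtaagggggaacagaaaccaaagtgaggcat
XBP1 at 8.05 kb, ETS-IRF match (chr22:28792266-28792334): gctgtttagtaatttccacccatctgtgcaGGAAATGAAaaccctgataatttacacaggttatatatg
POU2AF1 at −9.77 kb, octamer (chr11:111389087-111389154): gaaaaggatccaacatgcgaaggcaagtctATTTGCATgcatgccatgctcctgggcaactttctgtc
Every base printed here lay in a peak of both lists. In the PRDM1 stretch at 77.7 kb the IRF repeats lie side by side on the same strand, and an ETS-IRF match (chr6:106164652-106164660) follows them in lower case. In the stretch at 55.6 kb the MEF2 matches have the same letters.

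Genes that act with the members were looked at in the same way. The 10 partners and upstream regulators (IKZF1, IKZF3, ELL2, ERN1, ATF6, ATF4, CREB3L2, BHLHA15, TCF3 and RUNX1) all had an own promoter peak in every library of both lines, as the members did. Of all protein-coding genes, 76.8% in MM.1S and 71.9% in RPMI8226 had a promoter peak of any support. Their median was 6.73 peaks per 100 kb in MM.1S and 6.72 in RPMI8226. ERN1, which splices XBP1, had 26 and 25 peaks in its window. No gene of the 10 for plasma cell products and surface proteins was without a promoter peak in either list, and for 9 of them in each list it was in every library. In MM.1S the exception was JCHAIN, with support 8, and in RPMI8226 SLAMF7, with support 4. Of 10 B cell factors, RPMI8226 lacked a promoter peak for SPIB alone, and in MM.1S SPIB reached support 6 of 9. PAX5, BCL6 and BACH2, which PRDM1 is known to repress or which oppose it, had promoter peaks in all libraries of both lines.

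Of 10 relatives of the members, 8 had a promoter peak in MM.1S and 9 in RPMI8226. The share over all protein-coding genes was 76.8% and 71.9%. POU2AF2 had none in either list, and POU2AF3 had one in RPMI8226 alone, with support 5. The other 8 relatives, such as IRF8, MEF2B and POU2F3, had one in both lists. Of the stromal markers, LOX, TWIST1 and SPARC had a promoter peak with support 9 in MM.1S and none in RPMI8226. Shared percentages of the windows, in MM.1S and RPMI8226, were 70.2% and 72.4% for the 10 plasma cell factors and 70.4% and 77.5% for the partners. They were 69.5% and 72.2% for the products, 70.4% and 78.3% for the relatives and 70.5% and 66.0% for the B cell factors. The stromal markers had 52.8% and 66.7%, and the median protein-coding window 71.4% and 73.3%. These lists were compared by counts only, and no difference between them was tested.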

How the data were processed

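Omni-ATAC libraries of MM.1S and RPMI8226 were assigned to a line and a culture condition by their labels. Reads were aligned to hg38 with Bowtie2 by the authors, who left out multi-mapping and duplicate reads, predicted peaks with MACS3 (versions not given in the sources used here) and took as reference peaks those seen in 3 or more libraries. Each deposited list holds coordinates and, without a header, a whole number in a unit other than reads, which was read as the number of libraries with the peak because its range runs from 3 to the number of libraries of the line. How the boundaries of peaks from different libraries were joined is not given in the sources used here. Depth per sample is unknown from the lists. The study reports it per library, with an MM.1S MONO library the shallowest, and these depths were not used here. Shares carry a 95% Wilson interval that covers counting error only, over peaks that are not replicates. No differential test was run.

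Start positions were read as counted from 0 and printed counted from 1. Genes and start sites came from GENCODE release 44 on the same build. No peak ended beyond a chromosome end. Windows were gene bodies plus 100 kb each side, promoters 2500 bp either side of a start site of any transcript, and everything else distal. Sequences came from hg38 and from RefSeq core promoters. Overlaps were computed with Python 3.11.15, numpy 2.4.6 and scipy 1.17.1, and checked on simulated peaks. Named peaks were, for each gene and list, the peak at the canonical start site, peaks at other start sites, the widest distal peak, and the widest shared and widest line-only distal peaks called in every library. Further peaks, and other genes that had promoter peaks in both lists, were named after their values were seen. The members and gene lists were chosen with earlier results of these data known. Other windows, promoter widths, overlap rules and support minimums were tried.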

Additional observations from a re-analysis of the deposited data

How the results depend on the processing

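Of 82 recomputed values of 14 results, 61 stayed within the interval or within 1.5 times of the reported value and 21 moved. All 10 genes kept a promoter peak in both lists under each of the settings tried, and between 7 and 9 of them stayed above the protein-coding median of peaks per 100 kb.

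The promoter share moved with the definition of a promoter. It was 34.9% in MM.1S and 34.7% in RPMI8226 with 1000 bp, 65.6% and 63.6% with the wider promoter of 5000 bp, and 33.9% and 28.9% with start sites of protein-coding transcripts only, so that "own", "other" and "distal" depend on the annotation. The shared share fell to 55.0% and 53.3% when the overlap had to be 50% of both peaks, and to 57.8% and 55.1% when the other list was limited to peaks called in every library. For distal peaks the 50% rule gave 50.5% and 49.5%. With only peaks called in every library, MM.1S had 135 peaks in the windows, 60.7% of them at promoters, and the shared share was 85.2% in MM.1S and 84.5% in RPMI8226 (88.7% and 76.1% for distal peaks). With peaks called in at least 60% of the libraries, the MM.1S shared share was 77.3%, and 75.3% for distal peaks. Of the distal MM.1S peaks alone, 50.5% were called in every library. Leaving out ZBTB20, the longest gene, or changing the window to 50 or 200 kb moved none of the shares beyond its interval. No paired analysis was possible because the lists hold no values of single libraries.

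The lists limit what can be read from these genes. A region called in 2 libraries of a line is absent from its list and one called in 3 is present. MM.1S had 9 libraries against 5 of RPMI8226, so the rule asked for a smaller part of its libraries. The MM.1S list had 72802 peaks and the RPMI8226 list 79969, and the effect of the rule on them was not tested. Peak boundaries were wider in MM.1S. Read depth was not used here, and neither the level of accessibility nor its change with culture condition can be read from the lists.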

Other observations

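Several peaks in the windows belong to genes of other cell types or functions and are given here as values only. In the MEF2C window, LINC00461 had 6 promoter peaks with support 9 in MM.1S. The widest of them, 2163 bp at 208 kb, met 2 RPMI8226 peaks of 1258 and 578 bp. In the POU2AF1 window, 2 distal peaks in introns of POU2AF2, at 95.9 and 107 kb in MM.1S, met RPMI8226 peaks at 95.8 and 107 kb, although POU2AF2 had no promoter peak in either list. In the IRF4 window, the DUSP22 promoter peak at −99.5 kb measured 1866 bp in MM.1S and 1567 bp in RPMI8226, with full support in both.

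IKZF1, a zinc finger factor upstream of IRF4 in MM cells, had 22 window peaks in MM.1S and 9 in RPMI8226, and 31.8% of the former and 88.9% of the latter were shared. RUNX1 had the reverse order, with 47 and 61 peaks.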
